A study of Mus musculus with 6 samples.

Results

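The INO80 chromatin remodelling complex was described through 10 of its subunits, Ino80, Ino80b, Ino80c, Ino80d, Ino80e, Actr5, Actr8, Ruvbl1, Ruvbl2 and Nfrkb, which are 10 of the 21006 genes in the mRNA tables. They were taken as the rows whose Ensembl identifier maps to these symbols. Ino80d was selected on its difference between the groups, so its values are given as a description with no test, and the other 9 subunits are the comparison. The mRNA was measured by total RNA sequencing of the prefrontal cortex of wild type male C57BL/6 mice aged 18 months, with 3 mice in each of 2 groups and 1 library a mouse. The age is that of the age label, while the sample titles carry the tag 17M, which the labels do not explain. Mice of the PND group (postoperative neurocognitive disorder) inhaled isoflurane and had an exploratory laparotomy under it, with lidocaine cream and povidone iodine on the wound afterwards, and mice of the CON group had neither anesthesia nor operation. All animals went through behavioral tests in the days that followed and were deeply anesthetized with isoflurane before the tissue was taken, so the groups share that last exposure. Anesthesia, surgery and wound care were given together and cannot be told apart.

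INO80 is a large machine that uses ATP to slide nucleosomes along DNA and to edit the histone variant H2A.Z, and it acts in transcription, replication and DNA repair. A Snf2-type ATPase forms its motor, a ring of the AAA+ ATPases Ruvbl1 and Ruvbl2 holds the subunits together, and modules with actin-related proteins grip the nucleosome and the linker DNA. Ino80d, Ino80e and Nfrkb belong to the subunits found in animals and not in yeast, and in the developing cortex Ino80 is known for its part in repairing DNA of dividing progenitors.

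Ino80d (ENSMUSG00000040865) lies on the minus strand of chromosome 1, from 62958418 to 63114667 in GRCm38, and has 7 annotated transcripts of 1795 to 13675 bases. Its 3′ untranslated region is 10182 bases long in the GENCODE M21 annotation, against 63 to 1770 bases in the other 9 subunits. Ino80d is a predicted target of the microRNA miR-141-3p, a member of the miR-200 family. The mature microRNA and the stretches of the Ino80d 3′ untranslated region that pair with its seed are shown because the seed is the part of a microRNA that pairs with its targets. The matches were found by a search for the letters and come from no prediction database. Capitals mark the seed (bases 2 to 8) in the microRNA and the complementary 7 letters CAGTGTT in the transcript, written 5′ to 3′ on the strand of the gene.
miR-141-3p, mature: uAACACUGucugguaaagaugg
Ino80d, first match: cagtggacctggcgtCAGTGTTc
Ino80d, second match: ttgcacgctcatcccCAGTGTTg
The microRNA sequence comes from RefSeq (chr6:124717917-124717938, minus strand, GRCm38.p6). The matches lie at chr1:63057818-63057824 and chr1:63053215-63053221 (GRCm38, minus strand, 3′ untranslated region of Ino80d), and neither is followed by an A. Among the other subunits, 3 hold 1 match each in their 3′ untranslated region.
Ruvbl1, match: ctcaagcatgctttgCAGTGTTa
Ino80e, match: tgtagacagtcattcCAGTGTTt
Actr5, match: cccttgccatggaggCAGTGTTt
They lie at chr6:88497458-88497464 (plus strand), chr7:126851933-126851939 (minus strand) and chr2:158638937-158638943 (plus strand), and the match in Ruvbl1 is followed by an A. Ino80, Ino80b, Ino80c, Actr8, Ruvbl2 and Nfrkb hold none. Over all 14119 3′ untranslated regions searched on the transcript strand, 20.8% hold the 7 letters, at 0.162 matches per kb, against 0.196 per kb in Ino80d. Among the 95 whose length is within 2000 bases of that of Ino80d, 75.8% hold at least 1 match and 48.4% at least 2. A match of letters is a description of the sequence, and binding was not measured here.

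The libraries had an estimated effective size of 7179375 to 9384058 fragments, read from the spacing of the low FPKM values. FPKM counts fragments scaled by transcript length and by library size, here after normalization by TMM (trimmed mean of M values). The 13 mitochondrial genes took 30.4% to 38.8% of the summed FPKM. Of 34 cell type markers, 32 were above 0 in all 6 libraries, including all 5 neuron, all 5 cortical layer and all 4 striatal markers. The striatal list summed to 28.8 to 55.8 FPKM and the cortical layer list to 33.7 to 58.7 FPKM over the 6 libraries, so the libraries also hold transcripts that mark striatum. Of the 32 that were tested, 5 had an unadjusted p below 0.05 by limma, a larger share than the 3.13% of all genes tested, and none was past the cut-off below. Among them, on the log2 scale, were the microglia marker P2ry12 at -0.76, the astrocyte markers Aqp4 at -0.36 and Gfap at 0.66, and the choroid plexus marker Clic6 at 0.80 in PND relative to CON. In the same lists, the other microglia markers Csf1r, Cx3cr1 and Tmem119 were at -0.13, 0.15 and 0.52, the other astrocyte markers Slc1a2 and Aldh1l1 at -0.088 and 0.28, and Kl of the choroid plexus list at 0.34, all with an unadjusted p above 0.05. The summed choroid plexus list was 2.20 to 2.82 FPKM in PND and 1.15 to 1.99 FPKM in CON without overlap, with its defining marker Ttr at 0 to 0.207 FPKM and Folr1 at 0 in 5 of 6 libraries, while the sums of the other 7 lists overlapped between the groups. The part of these markers in the values of the subunits was not tested. In bulk tissue, fewer cells of a type and less RNA per cell cannot be told apart.

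Ino80d was higher in PND than in CON. It measured 6.49, 6.59 and 6.23 FPKM in the 3 PND mice and 1.86, 1.77 and 2.02 FPKM in the 3 CON mice. The groups did not overlap, and the lowest PND value was 3.08 times the highest CON value. The mean of the PND mice was 6.43 ± 0.185 FPKM (SD, n = 3), which was 3.42 times the 1.88 ± 0.130 FPKM of the CON mice (SD, n = 3). On the log2(FPKM + 0.1) scale the difference was 1.72. With its long exons, Ino80d rested on an estimated 246 to 1035 fragments a library. These values describe a gene chosen on this contrast and are no test of it.

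**Figure D1:**
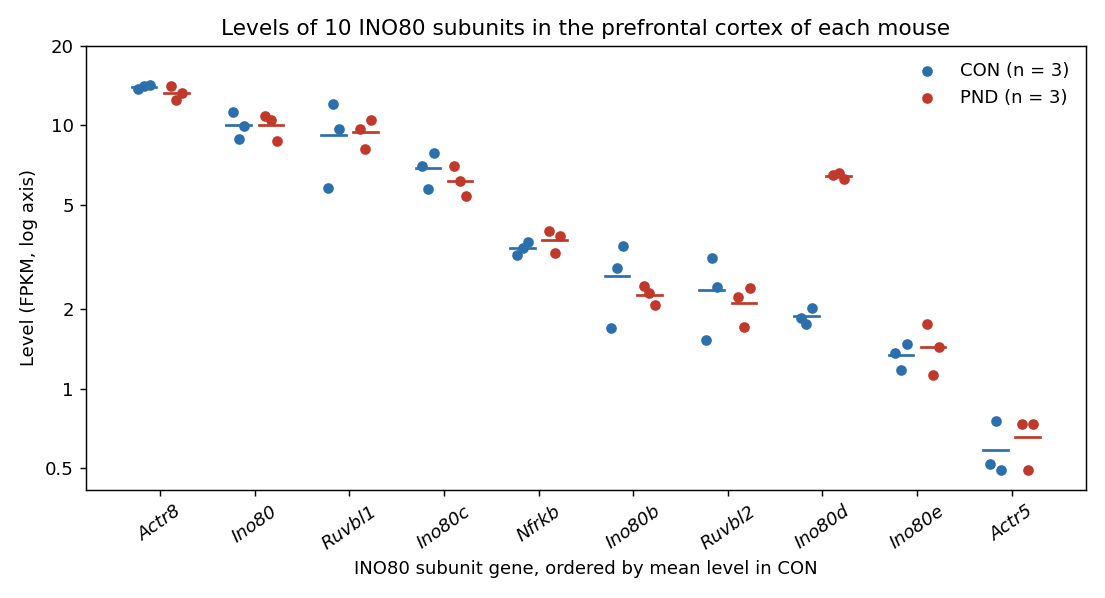
FPKM of the 10 INO80 subunits in each mouse on a log axis, with PND and CON mice as separate points. Ino80d sits at 6.23 to 6.59 FPKM in PND and 1.77 to 2.02 FPKM in CON, while the points of the other 9 subunits overlap between the groups.

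The cut-off for a changed gene was a log2 difference above 1 in either direction with an unadjusted p below 0.05, which 241 of the 18185 genes tested passed (1.33%). Of the 10 subunits, all of which passed the filter of a mean of at least 0.1 FPKM, 1 was past the cut-off, and this was Ino80d, which was chosen on this contrast, so nothing is read from that count. Of the other 9 subunits, 0 had an unadjusted p below 0.05, where 3.13% of all genes tested (569 genes) did. In 0 of the 9 were the PND and CON mice without overlap, where 7.66% of all genes tested (1393 genes) were. On average 4 were higher and 5 lower in PND, with differences of -0.17 to 0.13 on the log2 scale and a median of -0.0026, against a median of 0.012 over all genes tested. The smallest unadjusted p among them was 0.420 and every adjusted p was 0.99987 by limma with Benjamini-Hochberg adjustment over all genes tested. Each 95% interval lay between -1 and 1, the widest reaching from -0.57 to 0.84 in Actr5, so smaller differences in either direction could not be told from the spread between mice.

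Ino80, the ATPase that gives the complex its name, measured 10.8, 10.5 and 8.72 FPKM in PND and 11.3, 8.88 and 9.96 FPKM in CON. The mice of both groups overlapped, and the log2 difference was -0.0026 (SE 0.15, 95% interval -0.35 to 0.34). Ino80b, which stimulates the ATPase, measured 2.45, 2.31 and 2.08 FPKM in PND and 1.70, 2.86 and 3.48 FPKM in CON. The CON mice enclosed all PND values, and the log2 difference was -0.17 (SE 0.27).

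Ruvbl1 and Ruvbl2, the ring ATPases that also serve other complexes, spread widely between mice of the CON group. Ruvbl1 measured 9.64, 8.16 and 10.4 FPKM in PND and 5.76, 12.1 and 9.67 FPKM in CON, with a log2 difference of 0.094 (SE 0.27). Ruvbl2 measured 2.23, 1.72 and 2.41 FPKM in PND and 1.53, 3.12 and 2.44 FPKM in CON, with a log2 difference of -0.11 (SE 0.29). In both genes CON mouse 1 was lowest and CON mouse 2 highest, and the highest value of Ruvbl1 was 2.10 times its lowest. The ratio of Ruvbl2 to Ruvbl1, looked at after its values were seen, was 0.231, 0.211 and 0.230 in PND and 0.266, 0.258 and 0.252 in CON, without overlap. After a correction for the GC content of the genes the ratios were 0.234, 0.244 and 0.210 against 0.345, 0.221 and 0.263, and the groups overlapped.

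The actin-related proteins Actr5 and Actr8 stood at the ends of the range. Actr8, of the module that binds linker DNA, was the most abundant subunit in both groups at 14.1, 12.5 and 13.3 FPKM in PND and 13.8, 14.1 and 14.2 FPKM in CON. It was also the steadiest of the 9, its highest value being 1.14 times its lowest, and its log2 difference was -0.077 (SE 0.11, 95% interval -0.33 to 0.17). Actr5, which grips the nucleosome together with Ino80c, was the least abundant at 0.735, 0.493 and 0.732 FPKM in PND and 0.520, 0.752 and 0.490 FPKM in CON. It rested on an estimated 14.7 to 28.7 fragments a library, and its log2 difference was 0.13 (SE 0.30). Its partner Ino80c measured 6.98, 6.15 and 5.38 FPKM in PND and 7.01, 5.72 and 7.84 FPKM in CON, with a log2 difference of -0.15 (SE 0.17).

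Among the animal-specific subunits, Ino80e measured 1.76, 1.13 and 1.44 FPKM in PND and 1.37, 1.18 and 1.48 FPKM in CON, with a log2 difference of 0.084 (SE 0.24). Nfrkb, which holds the deubiquitinase Uchl5 in the complex, measured 3.95, 3.26 and 3.80 FPKM in PND and 3.21, 3.42 and 3.61 FPKM in CON, with a log2 difference of 0.099 (SE 0.16). The PND and CON mice overlapped in both genes.

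FPKM is scaled by transcript length, so levels can be set beside each other across subunits. By mean level Ino80d ranked 4 of the 10 in PND, between Ruvbl1 at 9.41 FPKM and Ino80c at 6.17 FPKM, and the values of Ino80d and Ino80c overlapped there. In CON it ranked 8, between Ruvbl2 at 2.36 FPKM and Ino80e at 1.34 FPKM, and overlapped with Ruvbl2. The other 9 had the same order of means in both groups, which from the top was Actr8, Ino80, Ruvbl1, Ino80c, Nfrkb, Ino80b, Ruvbl2, Ino80e and Actr5. Neighbours in the order whose mice did not overlap in either group were Actr8 and Ino80, Ino80c and Nfrkb, and Ino80e and Actr5. Together the other 9 summed to 49.1 ± 3.32 FPKM in PND mice and to 50.5 ± 3.80 FPKM in CON mice (mean ± SD over 3 mice each). Ino80d made up 11.6% ± 0.778 of the 10 summed levels in PND and 3.61% ± 0.301 in CON (SD, n = 3 each), and its ratio to Ino80 was 0.647 ± 0.060 in PND and 0.189 ± 0.021 in CON.

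The subunits also differed in how far single mice departed from their gene's mean, and these departures were set beside those of genes rich in GC. In the tenth of genes richest in GC (median 58.5%, 1233 genes), the median departure on the log2 scale was 0.11, -0.30 and 0.37 in the PND mice and -0.56, 0.49 and -0.03 in the CON mice. Ruvbl2, with 57.9% GC, likewise had CON mouse 1 lowest and CON mouse 2 highest. After the GC correction the pooled within-group SD of Ruvbl2 fell from 0.39 to 0.088 on the log2 scale and that of Ruvbl1 from 0.40 to 0.24. Ino80d, with 44.2% GC, had a pooled SD of 0.072 before and 0.077 after, and its log2 difference was 1.74 after the correction. The SD was smaller after the correction in 6 of the 10 subunits. Ino80b, the richest in GC at 60.5%, was not among them, with an SD of 0.37 before and 0.45 after.

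**Figure D2:**
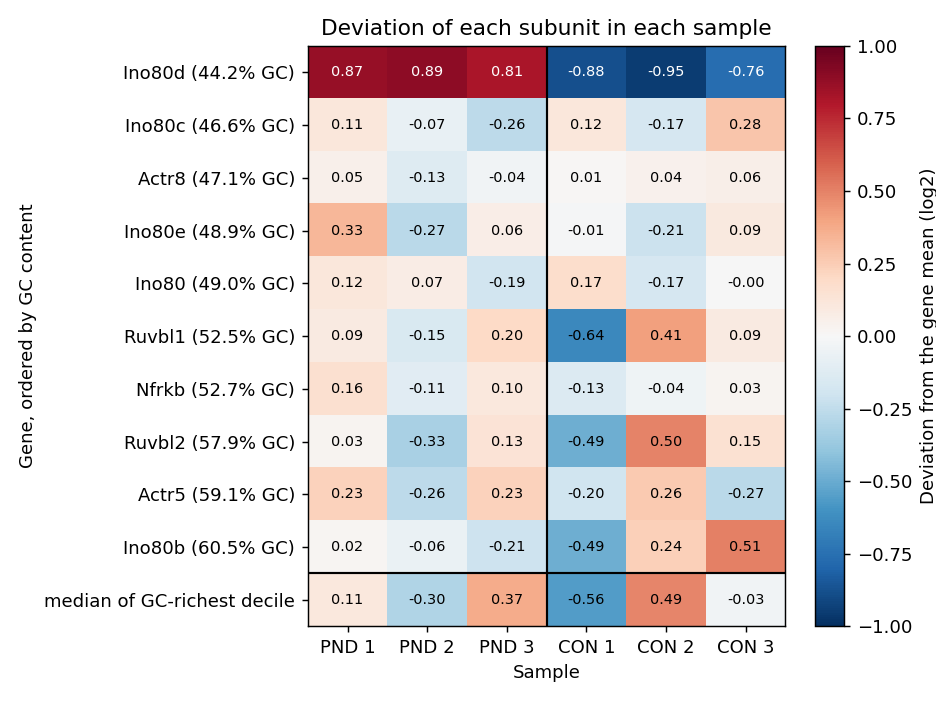
Departure of each mouse (columns) from the mean of the gene on the log2(FPKM + 0.1) scale, as colour and number, for the 10 subunits (rows, ordered by GC content), with the median of the tenth of genes richest in GC in the bottom row. Ino80d separates the 3 PND from the 3 CON mice, and Ruvbl1 and Ruvbl2 are lowest in CON mouse 1 and highest in CON mouse 2.

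The remaining subunits of the complex formed a further list of 5. Of these, 0 were past the cut-off and 0 had an unadjusted p below 0.05, beside 1.33% and 3.13% of all genes tested. Nothing is read from counts of 0 in a list this short. Uchl5, the deubiquitinase, measured 5.47, 5.36 and 4.78 FPKM in PND and 6.59, 5.96 and 6.57 FPKM in CON, without overlap. Its log2 difference was -0.29 (SE 0.13), with an unadjusted p of 0.067 by limma. Mcrs1, an animal-specific subunit, measured 3.48, 3.04 and 5.51 FPKM in PND and 1.53, 5.51 and 2.03 FPKM in CON. Its log2 difference was 0.56 (SE 0.46, unadjusted p of 0.262 by limma) and moved with single mice. It was 1.09 without CON mouse 2 (unadjusted p of 0.00935 by limma), 0.20 without CON mouse 1 (p of 0.667) and 0.32 without PND mouse 3 (p of 0.571). Tfpt, another animal-specific subunit, had a log2 difference of 0.28 (SE 0.29). Yy1, a zinc finger transcription factor that binds the complex, had -0.15 (SE 0.14). Actl6a, an actin-related protein shared with other remodelers, had -0.15 (SE 0.18), and its mice did not overlap between 1.48 to 1.61 FPKM in PND and 1.67 to 1.82 FPKM in CON.

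Complexes that share subunits or substrates with INO80 were counted in the same way. Over all 51 companion genes, the 5 above included, 0 were past the cut-off and 0 had an unadjusted p below 0.05. Over all genes tested these shares were 1.33% and 3.13%, so little is read from counts of 0. Of the 51, 23 were higher and 28 lower, with a median log2 difference of -0.015. In 4 of the 51 the groups did not overlap, namely Uchl5, Actl6a, Chd7 and Chd9, beside 7.66% of all genes tested. The 6 genes of the SRCAP complex, which deposits H2A.Z, ran from Vps72 at -0.20 to Srcap at 0.57. Srcap, its ATPase, measured 10.9, 12.3 and 13.7 FPKM in PND and 12.4, 13.0 and 3.40 FPKM in CON, and CON mouse 3 stood below the other 5. The 12 genes of the TIP60-p400 complex, which joins acetylation to remodeling, ran from Morf4l2 at -0.24 to Meaf6 at 0.12. The 16 other remodelling ATPases ran from Chd7 at -0.25 to Chd9 at 0.19. The 3 genes for H2A.Z and its chaperone ran from Anp32e at -0.18 to H2afv at 0.16, and the 9 co-chaperone partners of Ruvbl1 and Ruvbl2 from Znhit3 at -0.52 to Znhit2 at 0.49.

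The genes around Ino80d on chromosome 1 were examined by position alone. Within 500 kb of its span 11 other genes were measured. Of these, 0 were past the cut-off and 0 had an unadjusted p below 0.05, beside 1.33% and 3.13% of all genes tested. In 2 the groups did not overlap, beside 7.66% of all genes tested. With so few genes, nothing is read from these counts. Of the 11, 5 were higher and 6 lower, with a median log2 difference of -0.071. Ino80dos, a long non-coding RNA on the opposite strand, shares 431 exon bases with Ino80d, which is 2.43% of the Ino80d exons. It measured 1.02, 1.40 and 0.617 FPKM in PND and 1.71, 0.865 and 1.05 FPKM in CON, with overlapping groups and a log2 difference of -0.24 (SE 0.37). How strand was treated in counting is not given in the sources used here, so reads in the shared bases cannot be assigned to either gene. Gm20342, which lies 2.45 kb from Ino80d, had a log2 difference of 0.067 (SE 0.13). Ndufs1, a subunit of mitochondrial complex I, had -0.10 (SE 0.12).

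**Figure D3:**
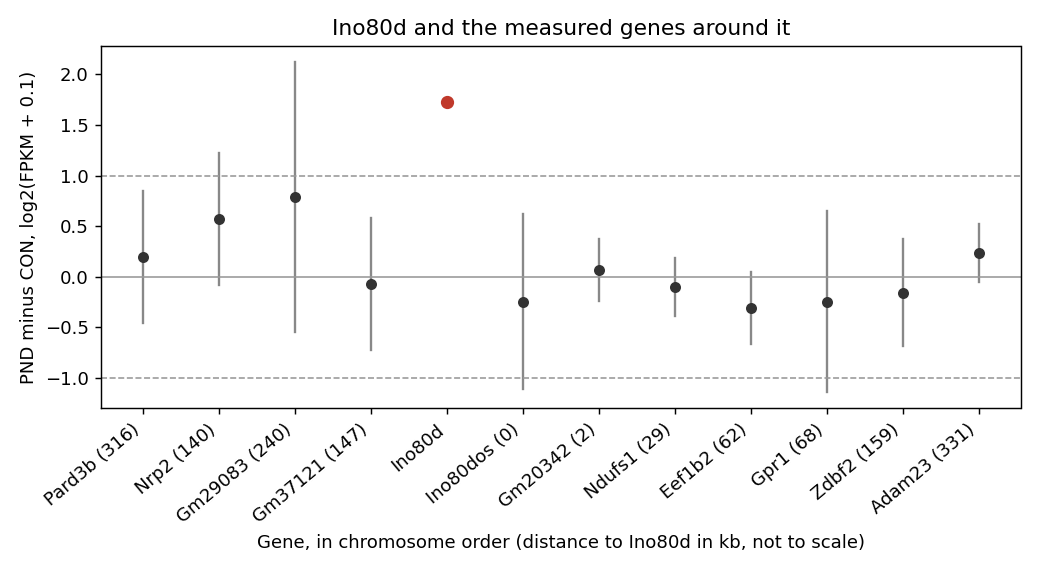
Difference between PND and CON in log2(FPKM + 0.1) for Ino80d and the 11 measured genes within 500 kb, in chromosome order with the distance in kb in the labels and 95% intervals for the neighbours. Ino80d stands at 1.72, and the neighbours lie between -0.31 and 0.78 with intervals that include 0.

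The other neighbours ran from Eef1b2 at -0.31 to Gm29083 at 0.78, through Gpr1, Zdbf2, Gm37121, Pard3b, Adam23 and Nrp2. Eef1b2, a translation elongation factor, measured 3.54 to 4.21 FPKM in PND and 4.45 to 5.24 FPKM in CON without overlap, with an unadjusted p of 0.077 by limma. Adam23, a synaptic membrane protein, measured 13.2 to 15.1 FPKM in PND and 10.8 to 12.7 FPKM in CON without overlap, with an unadjusted p of 0.093 by limma.

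Some subunits share exon bases with other genes, and their levels are uncertain to that extent. Ino80e shares 1103 bases (14.4% of its exons) with Doc2a and 150 bases with Hirip3, Ruvbl2 shares 310 bases (10.7%) with Gys1, and Actr8 shares 141 bases with Il17rb. Ruvbl2 also shares 138 bases (4.76%) with Lhb, Ino80b 91 bases (5.71%) with Gm44287 and Actr5 8 bases with Mir3474. Lhb, Gm44287 and Mir3474 are not among the genes analysed here. The log2 differences of the other 4 genes were 0.070 for Doc2a, 0.042 for Hirip3, 0.33 for Gys1 and -0.55 for Il17rb, with the smallest unadjusted p being 0.208 by limma. Ino80d shares runs of at least 50 bases with 121 genes that do not overlap it, the longest being 54 bases. This is not particular to Ino80d. Actr8 shares such runs with 329 genes (longest 64 bases), Ino80e with 314 (longest 88) and Nfrkb with 44 (longest 75). Ruvbl1 shares a run of 355 bases with Gm5837, which is not among the genes analysed here.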

How the data were processed

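Total RNA from the prefrontal cortex of 6 mice was depleted of ribosomal RNA and sequenced. The authors filtered reads with Seqtk, aligned them with HISAT2, counted fragments with StringTie, normalized by TMM and deposited FPKM values per gene and sample. The submitters' processing notes also list Bowtie 0.12.2 and builds mm8 and mm9. The annotation is not given in the sources used here. Identifiers were matched to GENCODE M21 (GRCm38).

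The FPKM values were taken as log2(FPKM + 0.1), genes averaging 0.1 FPKM or more over the 6 samples were kept, and PND was compared with CON by limma 3.58.1 (R 4.3.3) with an intensity trend, two-sided, over all genes. Intervals are 95%. The code was tested on simulated data. Effective fragments per library were estimated from steps in low FPKM values. The size was chosen to put as many low values as possible near whole fragment numbers. At that size 41.6% to 44.8% of the low values lay within 0.05 of a whole number. Without steps 10% would at a fixed size, and the choice itself raises the share, so it is no independent check. No count test was run.

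The members and lists were chosen with earlier results of these data known. Genes named are all members, genes that share exons with them, the other INO80 subunits, in each other list the extremes and any gene with an unadjusted p below 0.05, neighbours within 500 kb and the 5 genes most like Ino80d. Alternatives were other pseudocounts, filters and scalings, a GC correction, a replicate block and each mouse left out. The value of 1 marker gene is not reported here.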

Additional observations from a re-analysis of the deposited data

How the results depend on the processing

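The log2 difference of Ino80d was 1.37 with a pseudocount of 1 and 1.68 to 1.77 with each mouse left out, as a description of a gene chosen on this contrast. The count of companion genes past the cut-off was 0 to 1 with each mouse left out, the 1 being Mcrs1 without CON mouse 2. The small differences of the other 9 subunits moved with single mice, and those of 5 changed sign. Ino80 was 0.0080 after quantile normalization and -0.087 to 0.093 with each mouse left out, Ino80b was -0.46 to 0.039, Ino80e -0.061 to 0.24, Ruvbl1 -0.21 to 0.32 and Ruvbl2 -0.38 to 0.11. Actr5 was 0.033 to 0.30, Actr8 -0.12 to -0.032, Ino80c -0.27 to -0.045 and Nfrkb 0.045 to 0.18, all of one sign. The cause was not tested. No other subunit reached an unadjusted p below 0.05 in any of these settings, the lowest being 0.0545 for Ino80b with 1 mouse left out. The mice were not treated as pairs. Departures of same-numbered mice correlated at -0.049, -0.45 and 0.027, and those of differently numbered mice at -0.42 to 0.43. With 3 mice a group, these correlations cannot decide whether the replicate numbers stand for pairs. A replicate block cannot move a difference between balanced groups, which stayed at 1.72 for Ino80d, and 0 companion genes were past the cut-off with it. With 3 mice a group and few fragments for Actr5 and Ino80b, small differences could not be told from the spread between mice.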

Other observations

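The 5 genes whose pattern over the 6 mice was most like that of Ino80d, among 12386 genes averaging 1 FPKM or more, were Ctla2a, Zfp398, Ostc, Gm37254 and Gm43206, with Pearson correlations of 0.991, 0.990, 0.989, 0.986 and 0.986 on the log2(FPKM + 0.1) scale. All 6 points share libraries and groups, and genes that separate the groups rank high by construction. Ctla2a, a relative of cysteine protease propeptides, measured 7.00, 6.36 and 8.22 FPKM in PND and 1.65, 1.43 and 1.62 FPKM in CON. Zfp398, a zinc finger protein, measured 6.19, 6.59 and 6.39 FPKM in PND and 2.29, 2.74 and 2.75 FPKM in CON. Ostc, of the oligosaccharyltransferase complex, measured 2.98 to 3.08 FPKM in PND and 2.22 to 2.32 FPKM in CON. Gm43206 rested on an estimated 0.998 to 2.00 fragments a library.

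The other subunits with a mean of at least 1 FPKM ranked from 1556 for Nfrkb, with a correlation of 0.47, to 11288 for Actr8, with -0.59. Ino80 had 0.025, Ruvbl1 0.12 and Ruvbl2 -0.19.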
